A study of Mus musculus with 8 samples.

Results

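The enzymes that attach palmitate to proteins and take it off again are encoded by 34 of the 21959 genes in the deposited table, and these are described here. They comprise 24 DHHC acyltransferase genes (every listed Zdhhc gene with a number), the DHHC9 partner Golga7, the lysosomal thioesterases Ppt1 and Ppt2, the acyl-protein thioesterases Lypla1, Lypla2 and Lyplal1, and the hydrolases Abhd10, Abhd17a, Abhd17b and Abhd17c. The genes were selected by name, but the set was chosen from results in which the change of Zdhhc2 between these same libraries was known. Values of that contrast are therefore a description of the genes and no independent evidence. Of the 34 genes, 31 passed the filter on low counts and entered the fit. Zdhhc25 had no read in any library, Zdhhc11 had 1 read in Model 3 alone, and Zdhhc19 had 4 reads over the IsoL libraries and 5 over the Model libraries, where 3 reads correspond to 0.139 to 0.210 CPM (read counts scaled to the library total, and for every other CPM value also by TMM factors). Whether these 3 genes differed was not detectable at this depth.

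S-palmitoylation attaches a fatty acid, usually palmitate, to cysteines of proteins through a thioester bond, and it is the lipid modification of proteins that cells can readily reverse. Enzymes of the DHHC family, named after the Asp-His-His-Cys motif of their active site, transfer the acyl group from palmitoyl-CoA. Acyl-protein thioesterases of the cytosol, the ABHD17 enzymes of the plasma membrane and the palmitoyl-protein thioesterases of the lysosome take it off. In neurons the cycle controls where receptors, scaffolds, G proteins and vesicle proteins sit, and the postsynaptic scaffold PSD-95 is its best known substrate.

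Polyadenylated RNA was sequenced in 8 mouse libraries with wild-type genotype labels. The 4 IsoL libraries carry the treatment label isoliensinine, a plant alkaloid, and the 4 Model libraries the label PCPA (para-chlorophenylalanine, which blocks serotonin synthesis). The design text speaks of female ICR mice treated for 7 days, of pentobarbital injected 40 minutes after the last dose to time sleep, and of hypothalamus, while the tissue label is brain. IsoL doses of 12.5, 25 and 50 mg/kg are listed, and the labels do not give the dose sequenced, the age, whether IsoL mice also received PCPA, or whether each library is a separate mouse. P-values thus rest on library-to-library spread, part or all of which may be technical. Y-linked transcripts summed to 301 to 354 CPM in every library, whereas the mice are described as female. Totals were 15731923 to 21620466 counts in IsoL and 14262836 to 15886850 in Model. Model 2 stood apart, in that chi-square over all genes, divided by its degrees of freedom, came to 10.9 to 15.2 when it was paired with another library, and to 2.52 to 9.75 in the remaining pairs.

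The active sites show what unites the enzymes and where they part. In the GENCODE M21 transcripts (GRCm38), all 24 DHHC genes held the motif once in their coding sequence. It read Asp-His-His-Cys in 23 and Asp-Gln-His-Cys in Zdhhc13. In the windows listed here, 5′ to 3′ on the coding strand, capitals mark the codons of this motif, with 18 bases on either side, spliced where an exon ends. The set covers the genes with the largest differences between groups (Zdhhc2, Zdhhc22, Zdhhc7 and Zdhhc15), the closest relatives by sequence or function that are set against them (Zdhhc20 and Zdhhc3), and the ankyrin-repeat pair Zdhhc17 and Zdhhc13.
Zdhhc2: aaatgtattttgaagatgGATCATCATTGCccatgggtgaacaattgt
Zdhhc15: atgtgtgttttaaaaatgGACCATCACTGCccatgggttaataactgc
Zdhhc20: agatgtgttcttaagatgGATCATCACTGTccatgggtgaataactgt
Zdhhc7: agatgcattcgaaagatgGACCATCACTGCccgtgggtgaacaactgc
Zdhhc3: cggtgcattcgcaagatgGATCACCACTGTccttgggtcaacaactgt
Zdhhc17: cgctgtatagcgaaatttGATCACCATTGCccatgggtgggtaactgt
Zdhhc13: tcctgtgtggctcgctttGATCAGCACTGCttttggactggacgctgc
Zdhhc22: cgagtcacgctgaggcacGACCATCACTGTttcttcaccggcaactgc
The motif itself lies within 1 coding exon in all of them, at chr8:40456679-40456690 on the plus strand for Zdhhc2 and at chr12:86988344-86988355 on the minus strand for Zdhhc22. These are GRCm38 positions. They fall outside the deposited spans of both genes given further on, so the deposited coordinates are not on GRCm38 and cannot be set against them. Position by position, the 48-base window of Zdhhc2 shared 40 bases with Zdhhc20, 38 with Zdhhc7 and with Zdhhc16, 37 with Zdhhc15 and 21 with Zdhhc22, against 20 with Zdhhc13, the lowest. In 16 of the 24 genes the motif was followed by codons for Pro-Trp. Zdhhc22, Zdhhc23, Zdhhc13, Zdhhc24, Zdhhc4, Zdhhc1, Zdhhc11 and Zdhhc19 had other codons there.

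The thioesterases use a serine in place of the cysteine. The Gly-X-Ser-X-Gly motif of serine hydrolases occurred in the coding sequence of 8 of the 9 thioesterase genes, Ppt2 having no match. The windows of a lysosomal enzyme, of a cytosolic pair and of a plasma membrane enzyme are shown because their levels are set side by side further on, with the codons of the motif in capitals and 18 bases on either side.
Ppt1: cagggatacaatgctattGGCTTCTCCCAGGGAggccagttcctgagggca
Lypla1: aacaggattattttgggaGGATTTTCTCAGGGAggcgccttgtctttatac
Lypla2: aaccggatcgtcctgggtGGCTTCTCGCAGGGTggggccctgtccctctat
Abhd17b: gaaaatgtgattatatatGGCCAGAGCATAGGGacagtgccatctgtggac
Abhd17b holds a second match upstream, which is not shown. The Ppt1 motif lies at chr4:122844520-122844534 on the plus strand and that of Abhd17b at chr19:21680902-21680916 on the plus strand, both in GRCm38. In Lypla1 and Lypla2 the motif itself spans a splice junction.

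By level per length (deposited FPKM, fragments scaled by gene length and library size), the most abundant gene of the set was Ppt1, the lysosomal thioesterase lost in infantile neuronal ceroid lipofuscinosis, with a mean of 44.5 FPKM over the 8 libraries and a range of 40.9 to 54.6. Zdhhc22, an acyltransferase that acts on BK potassium channels, followed with 39.5 FPKM (33 to 45.5). Its range overlapped that of Ppt1 but lay above that of Zdhhc17, the huntingtin-interacting acyltransferase, at 29.6 FPKM (28.2 to 32.1). Zdhhc20 had 22.8, Zdhhc2 17.3 and Zdhhc5 16 FPKM. Among neighbours in this order the 8-library ranges were apart in 7 of 33 pairs, for instance Zdhhc5 above Zdhhc8 (12.9 FPKM) and Zdhhc8 above Zdhhc14 (10.8 FPKM), and overlapped in the others. At the low end of the tested genes stood Zdhhc15 with 2.45 FPKM and Zdhhc12, which acts on the GABA synapse scaffold gephyrin, with 1.20 FPKM (0.677 to 1.61).

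**Figure D1:**
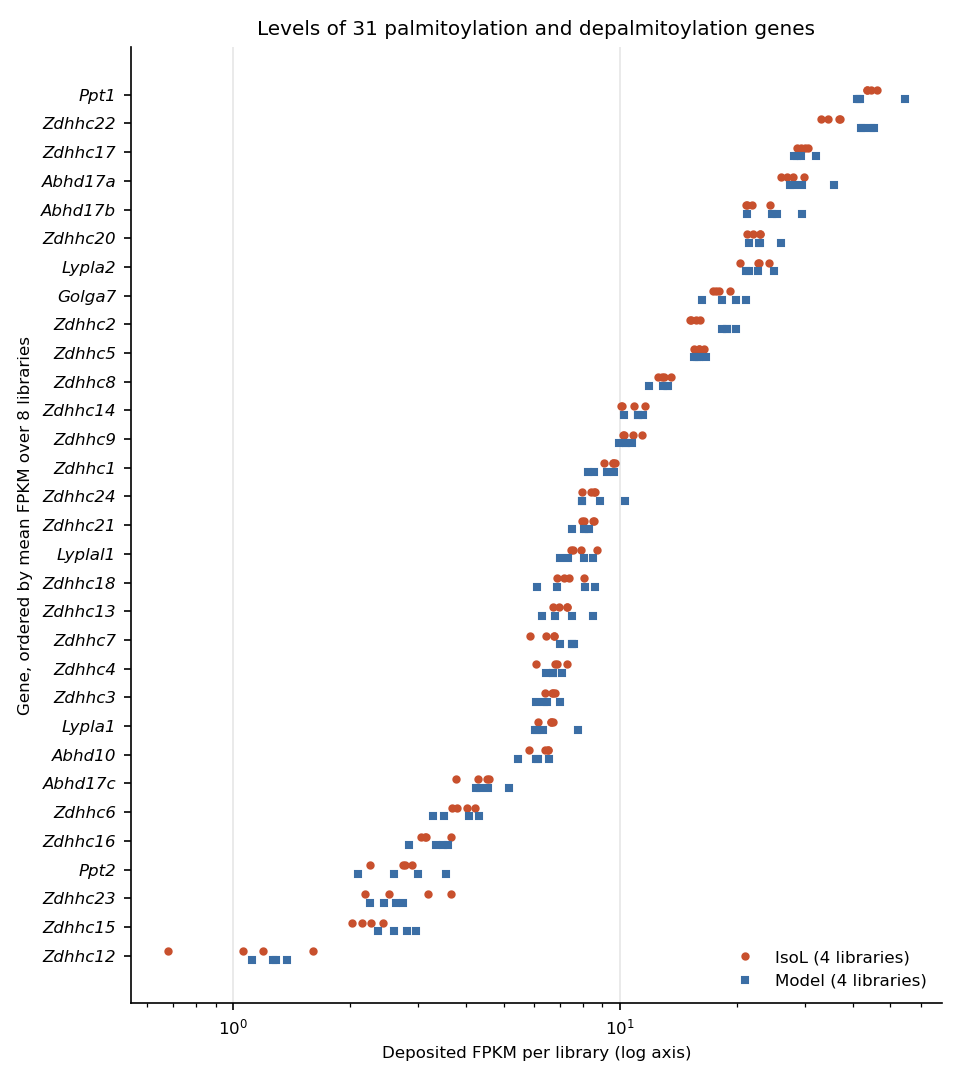
Deposited FPKM of the 31 tested genes on a log axis, 1 point per library, with IsoL as orange circles above Model as blue squares and genes ordered by their mean over 8 libraries. Ppt1 and Zdhhc22 lead, Zdhhc12 is lowest, and the colours part for Zdhhc22, Zdhhc2 and Zdhhc7.

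Transcripts of the DHHC family were concentrated in few members. Zdhhc22, Zdhhc17, Zdhhc20, Zdhhc2 and Zdhhc5 together made up 52.4 ± 1.15% in IsoL and 54.7 ± 1.17% in Model of the summed FPKM of the 24 genes (SD, n = 4 each). Zdhhc22 alone held 15.6 ± 0.744% in IsoL and 18.2 ± 0.864% in Model, and Zdhhc2 6.85 ± 0.148% in IsoL and 7.90 ± 0.333% in Model. The summed level of the family was 225 to 229 FPKM in the IsoL libraries, against 238 to 245 FPKM in the Model libraries, so the groups did not overlap. Of the difference between the group means of -13.4 FPKM, -11.7 FPKM lay in Zdhhc2 and Zdhhc22. These genes were set apart because they passed the threshold in this same contrast, so the split describes the sum and is no further result. The other 22 genes summed to 175 to 177 FPKM in the IsoL libraries, against 173 to 184 FPKM in the Model libraries, with overlap. The 9 thioesterase genes summed to 138 to 149.7 FPKM in the IsoL libraries, against 139.6 to 176 FPKM in the Model libraries. The ratio of the family sums, DHHC over thioesterase, was 1.57 ± 0.0575 in IsoL and 1.61 ± 0.149 in Model. By library it was 1.52 to 1.65 in IsoL, against 1.67, 1.39, 1.67 and 1.72 in Model 1 to 4. The overlap thus came from Model 2, which had the highest thioesterase sum, and the other Model libraries lay above every IsoL library.

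**Figure D2:**
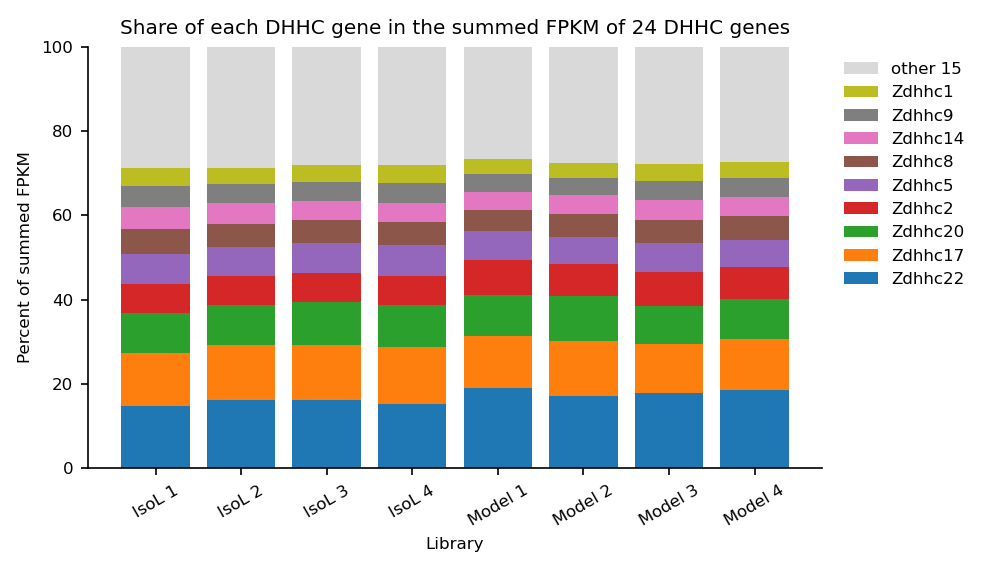
Stacked bars of the percent each DHHC gene takes of the summed deposited FPKM of 24 DHHC genes, 1 bar per library, IsoL left of Model. The lowest segment, Zdhhc22, is smaller in each IsoL library (14.7 to 16.2%) than in each Model library (17.1 to 19.1%).

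Zdhhc2 (ENSMUSG00000039470, chromosome 8, 40876856 to 40963309, plus strand, by the deposited table, which names no genome build) encodes an acyltransferase that modifies PSD-95 in dendrites. It had 84.1, 84.8, 88.5 and 86.1 CPM in IsoL 1 to 4, against 112, 104, 104 and 102 CPM in Model 1 to 4. Every IsoL library was below every Model library, and the IsoL values were the tighter ones. The means were 85.9 ± 1.92 CPM in IsoL and 105 ± 4.74 CPM in Model (SD, n = 4 each), a log2 fold change of -0.29 with a standard error of 0.05 and a 95% interval of -0.40 to -0.19 (edgeR quasi-likelihood test, Benjamini-Hochberg adjusted p = 0.0345 over 14536 genes). That is 0.816 times the Model level. On the table's coordinates Zdhhc2 overlaps Cnot7 on the opposite strand, and no strand marking is stated, so reads from the shared stretch cannot be told apart. In bulk tissue, fewer cells of a type and less RNA per cell cannot be told apart either.

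Zdhhc22 (ENSMUSG00000048483, chromosome 12, 87027537 to 87037204, minus strand) showed a difference of like size. It had 121, 135, 134 and 125 CPM in IsoL 1 to 4, against 169, 153, 154 and 163 CPM in Model 1 to 4. Again no IsoL library reached the lowest Model library. Its means were 129 ± 7.06 CPM in IsoL and 159.6 ± 7.76 CPM in Model, with a log2 fold change of -0.31 (standard error 0.05, 95% interval -0.42 to -0.19, edgeR adjusted p = 0.0412). No other gene of the table overlaps it. Zdhhc2 and Zdhhc22 were the only genes of the set past the adjusted threshold of 0.05 in edgeR, both lower in IsoL. Of 31 tested genes 2 thus fell, where 0.158% of all 14536 tested genes passed with a lower level in IsoL, and none rose, where 0.117% did. At an unadjusted p under 0.05, 4 genes of the set were lower and none was higher, where 6.78% of all tested genes were lower and 6.44% higher at that p. DESeq2 called the same 2 genes (adjusted p = 5.3e-05 and 0.00011), where it called 2.14% of all genes, and limma voom with quality weights did too (adjusted p = 0.0063 and 0.0044), where it called 1.64%. Since the set was put together with the Zdhhc2 result in view, nothing is read from these shares.

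Both calls needed every library other than Model 2. Without Model 2 the edgeR adjusted p was 0.0072 for Zdhhc2 and 0.0063 for Zdhhc22. Leaving out any other single library ended both calls, with adjusted p of 0.0513 to 0.114 for Zdhhc2 and 0.0528 to 0.151 for Zdhhc22. The log2 changes themselves stayed between -0.31 and -0.26 for Zdhhc2 and between -0.33 and -0.28 for Zdhhc22.

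Zdhhc15, an X-linked relative of Zdhhc2 whose product also modifies PSD-95, was at 2.45 FPKM, below the 17.3 FPKM of Zdhhc2. It had 11.2, 13.5, 11.8 and 12.4 CPM in IsoL 1 to 4, against 16.6, 15.4, 12.9 and 14.4 CPM in Model 1 to 4. The groups met at IsoL 2 and Model 3, and the difference did not pass (log2 change -0.28, 95% interval -0.50 to -0.06, edgeR adjusted p = 0.265). The ratio of FPKM, Zdhhc2 over Zdhhc15, was 7.03 ± 0.582 in IsoL and 7.11 ± 0.596 in Model (SD, n = 4 each), a difference within the spread of the libraries. Zdhhc20, closest to Zdhhc2 in the motif window and known for modifying the EGF receptor, averaged 161 ± 5.22 CPM in IsoL and 169 ± 13.5 CPM in Model (log2 change -0.07, 95% interval -0.19 to 0.05).

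Zdhhc7 and Zdhhc3 encode related Golgi enzymes that modify G protein alpha subunits and, for Zdhhc3, the GABA-A receptor gamma2 subunit. Zdhhc7 had 21.6, 25, 24.7 and 23.5 CPM in IsoL 1 to 4, against 26.2, 27.8, 27.5 and 27.7 CPM in Model 1 to 4. All IsoL values were below all Model values, but the change did not pass (log2 change -0.20, 95% interval -0.36 to -0.05, edgeR adjusted p = 0.243). Zdhhc3, which overlaps Tgm4 on the opposite strand, had 92, 91.6, 92.2 and 86.8 CPM in IsoL 1 to 4, against 90.1, 95, 86.5 and 83.2 CPM in Model 1 to 4. Its groups overlapped and its interval spanned 0 (log2 change 0.03, 95% interval -0.08 to 0.14). The ratio of FPKM, Zdhhc3 over Zdhhc7, was 0.985 to 1.14 in the IsoL libraries, against 0.807 to 0.923 in the Model libraries, without overlap. Since Zdhhc7 by itself already parted the groups, the ratio is no separate result. The ratios of the other gene pairs computed overlapped between groups. Zdhhc2, Zdhhc22 and Zdhhc7 were the 3 of 31 tested genes whose IsoL libraries all lay below the Model libraries, a pattern that 4.42% of all tested genes showed. None had all IsoL libraries above, against 4.05% of all tested genes.

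**Figure D3:**
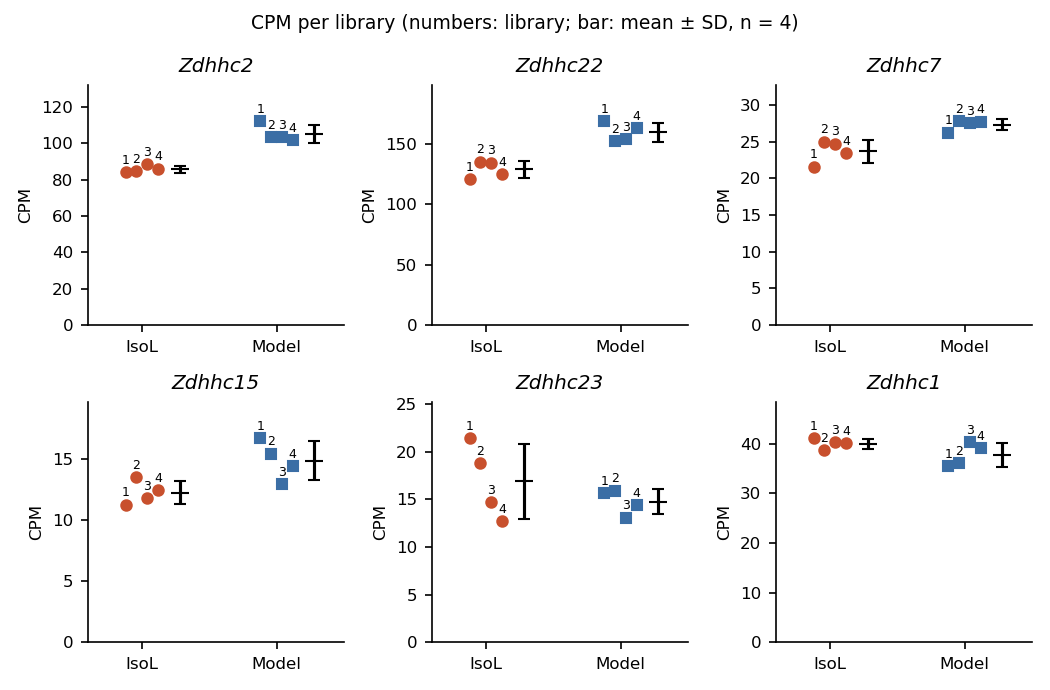
CPM of 6 DHHC genes in each library, IsoL left of Model, with library numbers and mean ± SD (n = 4) beside the points and each axis starting at 0. The groups are apart for Zdhhc2, Zdhhc22 and Zdhhc7 and overlap for Zdhhc15, Zdhhc23 and Zdhhc1.

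Of the 9 genes of the set with a higher mean in IsoL, the 4 with the smallest p were Zdhhc1, Zdhhc23, Zdhhc21 and the thioesterase Abhd10, and none passed. Zdhhc23, which like Zdhhc22 acts on BK channels and also binds neuronal nitric oxide synthase, had 21.4, 18.8, 14.7 and 12.7 CPM in IsoL 1 to 4, against 15.7, 15.9, 13.1 and 14.4 CPM in Model 1 to 4. It was high in IsoL 1 and 2 while IsoL 3 lay within the Model range and IsoL 4 below it (log2 change 0.19, 95% interval -0.13 to 0.51, edgeR adjusted p = 0.621). With IsoL 3 and 4 alone against Model, a setting chosen after seeing the data, its log2 change was -0.11. IsoL 1 and 2 also stood out in markers of cortex and hippocampus, whose score (mean centred log2 CPM) was 0.83 and 0.70 in IsoL 1 and 2, -0.33 in IsoL 3 and in IsoL 4, and -0.29 to -0.11 in Model. Of the 9 tested markers of that list, 5 were higher and 4 lower in IsoL. The same libraries had the highest scores for choroid plexus (2.38 and 2.11) and oligodendrocytes (0.12 and 0.07) as well. The part of tissue composition in the Zdhhc23 values was not tested. The FPKM ratio of Zdhhc22 over Zdhhc23 was 12.7 ± 3.04 in IsoL and 17.4 ± 1.501 in Model. Zdhhc1 had 41, 38.6, 40.3 and 40.1 CPM in IsoL 1 to 4, against 35.5, 36, 40.3 and 39.1 CPM in Model 1 to 4, with overlap (log2 change 0.09, 95% interval -0.05 to 0.22). Zdhhc21, which modifies the kinase Fyn, had 104, 112, 109.8 and 104 CPM in IsoL 1 to 4, against 108, 97, 104 and 108 CPM in Model 1 to 4, also with overlap (log2 change 0.04, 95% interval -0.07 to 0.15).

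Several other acyltransferase genes had group means that differed by less than the spread of their libraries. Zdhhc17, whose enzyme carries ankyrin repeats and modifies huntingtin and SNAP25, had 203, 208, 211 and 214 CPM in IsoL 1 to 4, against 211, 225, 197 and 202 CPM in Model 1 to 4 (log2 change -0.00076, 95% interval -0.11 to 0.10). Its relative Zdhhc13, the gene with the Asp-Gln-His-Cys motif, had 16.3, 17.7, 17.5 and 16.6 CPM in IsoL 1 to 4, against 15.5, 18, 20.4 and 16.4 CPM in Model 1 to 4 (log2 change -0.05, 95% interval -0.25 to 0.16). For both genes the Model libraries spanned a wider range than the IsoL libraries and enclosed it.

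Zdhhc5, a dendritic enzyme that modifies the scaffold GRIP1 and delta-catenin, had 81.2, 79.1, 80.5 and 82.3 CPM in IsoL 1 to 4, against 82.2, 79.3, 83.3 and 78.8 CPM in Model 1 to 4 (log2 change -0.002, 95% interval -0.10 to 0.10). Zdhhc5 overlaps Med19 on the opposite strand. Zdhhc8, its close relative, shared 44 of 48 bases of the motif window with it and had 66.2, 63, 62.8 and 60.3 CPM in IsoL 1 to 4, against 59, 64, 62.3 and 65.1 CPM in Model 1 to 4 (log2 change 0.01, 95% interval -0.10 to 0.12). The intervals of this pair allow changes of about 0.1 on the log2 scale in either direction, so they bound the difference more tightly than those of the low-level genes. The FPKM ratio of Zdhhc5 over Zdhhc8 was 1.24 ± 0.0579 in IsoL and 1.25 ± 0.0825 in Model.

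Zdhhc9, an X-linked gene whose enzyme modifies Ras proteins and whose human counterpart is linked to intellectual disability, had 77.2, 69.5, 68.1 and 72 CPM in IsoL 1 to 4, against 71.2, 66.7, 71.5 and 70.1 CPM in Model 1 to 4 (log2 change 0.04, 95% interval -0.08 to 0.15). Its partner subunit Golga7 had 129.8, 118, 118 and 120.4 CPM in IsoL 1 to 4, against 112, 141, 133 and 124 CPM in Model 1 to 4 (log2 change -0.07, 95% interval -0.21 to 0.07). Neither gene separated the groups, and Golga7 spread more widely among the Model libraries. Of the 2 other known DHHC cofactors, Selenok, which serves Zdhhc6, was at 106 ± 5.91 CPM in IsoL and 109.8 ± 6.20 CPM in Model (log2 change -0.05, edgeR adjusted p = 0.728), and Golga7b, which serves Zdhhc5, was at 48.6 ± 2.22 CPM in IsoL and 44.6 ± 10.9 CPM in Model (log2 change 0.12, edgeR adjusted p = 0.776). None of the 2 passed in edgeR, DESeq2 or limma voom or at an unadjusted p under 0.05.

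The remaining DHHC genes were Zdhhc14 (which acts on Kv1 potassium channels), Zdhhc18 (H-Ras), Zdhhc24, Zdhhc4, Zdhhc6, Zdhhc16 and Zdhhc12, with mean levels of 1.20 to 10.8 FPKM. Their log2 changes ran from -0.15 (Zdhhc12) to 0.04 (Zdhhc6, the endoplasmic reticulum enzyme), with edgeR adjusted p of 0.764 to 0.994. Every interval in this group included 0, and that of Zdhhc12, on 144 IsoL and 134 Model reads in all, was the widest of the set at -0.71 to 0.40. Zdhhc6 overlaps Acsl5, Zdhhc16 overlaps Mms19 and Zdhhc12 overlaps Pkn3, each on the opposite strand, which leaves their counts uncertain. Over the 21 tested DHHC genes, 14 were lower and 7 higher in IsoL, 2 fell and none rose, and the median log2 change was -0.01, beside -0.0015 over all tested genes.

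**Figure D4:**
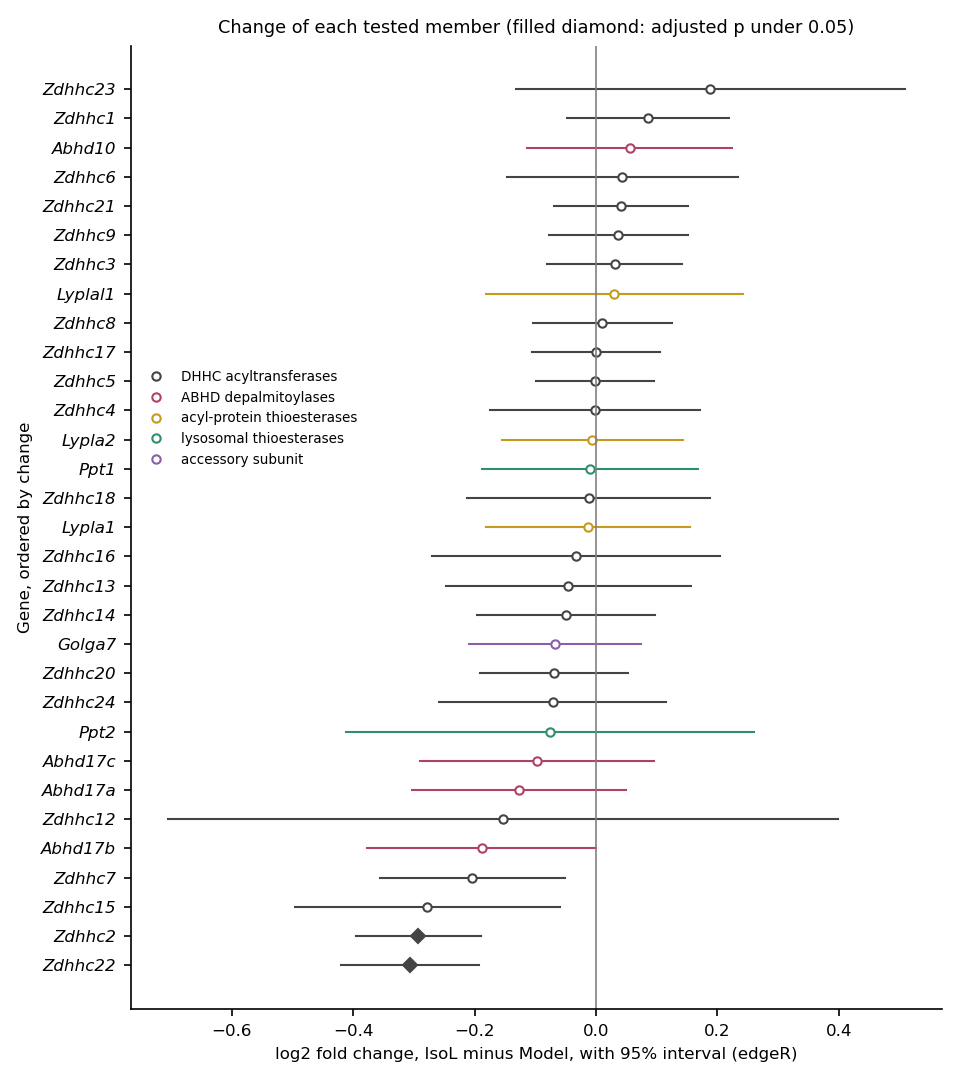
log2 fold change of IsoL minus Model for each of the 31 tested genes with its 95% interval from edgeR, ordered from highest at the top to lowest at the bottom, coloured by role. Filled diamonds mark Zdhhc22 and Zdhhc2 as the genes past the adjusted threshold, and Zdhhc15 and Zdhhc7 are the other genes whose interval leaves out 0.

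None of the 9 thioesterase genes changed past the threshold in edgeR, in DESeq2 or in limma voom, nor at an unadjusted p under 0.05. In 8 of the 9, Model 2 was the highest of the 8 libraries, the exception being Lyplal1. Over the 31 tested genes this held for 15, beside 23.5% of all tested genes. With all libraries, 7 of the 9 were lower in IsoL and their median log2 change was -0.01. Without Model 2, 3 were lower and the median was 0.05, so the sign of the median went with that library.

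Ppt1 had 171, 164, 159 and 159 CPM in IsoL 1 to 4, against 155, 199, 152 and 151 CPM in Model 1 to 4. Model 2 lay far above the other 7 libraries, and the change was -0.01 on the log2 scale with it (95% interval -0.19 to 0.17) and 0.10 without it. Ppt1 overlaps Cap1 on the opposite strand. Ppt2, the second lysosomal enzyme, averaged 6.98 ± 0.758 CPM in IsoL and 7.35 ± 1.54 CPM in Model (log2 change -0.08, 95% interval -0.41 to 0.26). The FPKM ratio of Ppt1 over Ppt2 was 16.7 ± 1.65 in IsoL and 16.2 ± 2.55 in Model, and Ppt1 made up 30.7 ± 1.03% in IsoL and 29.6 ± 0.897% in Model of the summed thioesterase FPKM.

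The acyl-protein thioesterases of the cytosol did not separate the groups. Lypla1 (APT1) had 48.2, 47.7, 47.1 and 43.5 CPM in IsoL 1 to 4, against 46.1, 55.2, 43.3 and 43.3 CPM in Model 1 to 4 (log2 change -0.01, 95% interval -0.18 to 0.15). Lypla2 (APT2) had 47, 47, 49.6 and 41.6 CPM in IsoL 1 to 4, against 44.3, 50.9, 46.3 and 44.3 CPM in Model 1 to 4 (log2 change -0.0067, 95% interval -0.16 to 0.14). The groups overlapped for both genes, with Model 2 the highest library, and IsoL 4 was the lowest library for Lypla2. The FPKM ratio of Lypla1 over Lypla2 was 0.290 ± 0.0120 in IsoL and 0.290 ± 0.0188 in Model. Lypla1 overlaps Gm37988 on the same strand, which leaves its count uncertain. Lyplal1, a related hydrolase, averaged 12.5 ± 0.917 CPM in IsoL and 12.2 ± 0.995 CPM in Model (log2 change 0.03, 95% interval -0.18 to 0.24).

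The ABHD17 enzymes, which depalmitoylate PSD-95 and N-Ras at the plasma membrane, had lower means in IsoL for all 3 genes, none past the threshold. Abhd17b had 62.4, 69.7, 60.1 and 59.4 CPM in IsoL 1 to 4, against 73.4, 83.2, 69.4 and 60.6 CPM in Model 1 to 4 (log2 change -0.19, 95% interval -0.38 to 0.00043, edgeR adjusted p = 0.379). Abhd17a had 43.5, 46.7, 41.6 and 40.1 CPM in IsoL 1 to 4, against 44.4, 55.1, 42.2 and 45.7 CPM in Model 1 to 4 (log2 change -0.13, 95% interval -0.30 to 0.05, edgeR adjusted p = 0.545). In each the highest value was Model 2, and the remaining libraries overlapped. Abhd17c had 19.9, 21, 21 and 17.2 CPM in IsoL 1 to 4, against 20.4, 23.6, 20.8 and 19.6 CPM in Model 1 to 4 (log2 change -0.10, 95% interval -0.29 to 0.10). Without Model 2 the log2 changes were -0.11 for Abhd17b, -0.04 for Abhd17a and -0.04 for Abhd17c. Abhd10, a mitochondrial depalmitoylase, had 21.7, 23.9, 24 and 23.9 CPM in IsoL 1 to 4, against 22.9, 24.2, 20.1 and 22.9 CPM in Model 1 to 4 (log2 change 0.06, 95% interval -0.11 to 0.22).

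Other genes of lipid modification did not pass either. Of 14 genes for other protein lipid attachments (myristoylation, prenylation and the acylation of Wnt and Hedgehog), 10 were higher and 4 lower in IsoL with a median log2 change of 0.03, and none passed in edgeR, DESeq2 or limma voom. At an unadjusted p under 0.05, 2 were higher and none lower, beside 6.44% and 6.78% of all tested genes. Porcn, which acylates Wnt proteins, was at 30.3 ± 3.05 CPM in IsoL and 25.8 ± 1.31 CPM in Model (log2 change 0.23, edgeR adjusted p = 0.244). Hhatl, a relative of the Hedgehog acyltransferase, was at 10.8 ± 1.86 CPM in IsoL and 8.67 ± 1.27 CPM in Model (log2 change 0.32, edgeR adjusted p = 0.352).

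Of 15 genes that supply, use or bind palmitoyl-CoA, 10 were higher and 5 lower (median log2 change 0.03). None passed in edgeR or limma voom, and 1 passed in DESeq2 as higher, where 2.14% of all genes were called. At an unadjusted p under 0.05 stood 1 lower and 1 higher gene, beside 6.78% and 6.44% of all tested genes. Scd1, a fatty acid desaturase, was at 654 ± 15.1 CPM in IsoL and 598 ± 1.69 CPM in Model (log2 change 0.13, edgeR adjusted p = 0.192). Acsl4, an acyl-CoA synthetase, was at 133 ± 5.07 CPM in IsoL and 144 ± 3.42 CPM in Model (log2 change -0.11, edgeR adjusted p = 0.306).

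Of 39 genes for neuronal proteins known to be palmitoylated, 23 were lower and 16 higher (median log2 change -0.01). None passed in edgeR, and at an unadjusted p under 0.05, 7 were lower and 4 higher, beside 6.78% and 6.44% of all tested genes. DESeq2 called 1 lower and 1 higher, where it called 2.14% of all genes, and limma voom called 1 higher, where it called 1.64%. Gap43, a growth cone protein anchored by palmitate, was at 343 ± 21.7 CPM in IsoL and 409 ± 36.7 CPM in Model (log2 change -0.25, edgeR adjusted p = 0.122). Grin2a, an NMDA receptor subunit, was at 104 ± 19.8 CPM in IsoL and 81.3 ± 1.68 CPM in Model (log2 change 0.35, edgeR adjusted p = 0.255). It had 125 and 116 CPM in IsoL 1 and 2, but 86.5 and 87.6 CPM in IsoL 3 and 4, against 79.7 to 83.4 CPM in Model. RNA levels say nothing of how much palmitate these proteins carry, which was not measured.

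Among lists of tissue composition markers, only the hypothalamic and, by a very narrow gap, the astrocyte scores parted the groups. Of 18 hypothalamic markers, 17 were tested and 15 of those were lower in IsoL, beside 50.5% of all tested genes. Their score was -0.79 to -0.0026 in IsoL, against 0.16 to 0.39 in Model, without overlap. Of the 17, 1 was past the threshold in edgeR, where 0.158% of all tested genes passed with a lower level in IsoL. DESeq2 called 6 lower, where it called 2.14% of all genes, and limma voom 4, where it called 1.64%. None was called higher. The gene past the edgeR threshold was Pmch, the melanin-concentrating hormone precursor, at 18.7 ± 3.73 CPM in IsoL and 34.7 ± 5.19 CPM in Model (log2 change -0.89, edgeR adjusted p = 0.0471), named here after its value was seen. The 18 markers together summed to 106 to 198 CPM in IsoL and 231 to 281 CPM in Model. Astrocyte markers were higher in IsoL in all 8 genes (median log2 change 0.13), with none past the threshold in edgeR or limma voom. DESeq2 called 1, where it called 2.14% of all genes. At an unadjusted p under 0.05 stood 2 of them, beside 6.44% of all tested genes higher at that p. The astrocyte scores were 0.0067 to 0.15 in IsoL, against -0.16 to 0.0035 in Model. Their sums were 4382 to 4482 CPM in IsoL and 3704 to 4199 CPM in Model. Of 8 neuronal markers 3 were higher and 5 lower, with overlapping scores of -0.03 to 0.03 in IsoL, against -0.06 to 0.05 in Model, and sums of 6527 to 6844 CPM in IsoL and 6310.2 to 6890.5 CPM in Model. At an unadjusted p under 0.05, 1 was higher and 2 were lower, beside 6.44% and 6.78% of all tested genes. None passed in edgeR, DESeq2 or limma voom. Choroid plexus markers, of which 6 of 8 were tested and all 6 higher, were high in IsoL 1 and 2, with scores of 2.38 and 2.11, against -1.39 to -0.58 in Model. DESeq2 called 3 of the 6 higher, where it called 2.14% of all genes, and none passed in edgeR or limma voom. At an unadjusted p under 0.05, 4 were higher, beside 6.44% of all tested genes. Their sum was 35.3 to 737 CPM in IsoL and 24.8 to 37.5 CPM in Model. No marker was at 0 in every library, while Aqp1 (choroid plexus) and Emx1 (cortex) had no read in at least 1 library. The 10 cortical and hippocampal markers summed to 330.3 to 518 CPM in IsoL and 338 to 369 CPM in Model, with 5 of the 9 tested higher and 4 lower. At an unadjusted p under 0.05, 2 were higher and none lower, beside 6.44% and 6.78% of all tested genes. None of them passed in edgeR, DESeq2 or limma voom. Microglial markers were higher in all 8 genes (median log2 change 0.19), with scores of -0.01 to 0.25 in IsoL, against -0.18 to 0.0046 in Model. Of these, 4 were at an unadjusted p under 0.05, beside 6.44% of all tested genes higher at that p. Oligodendrocyte markers were higher in 7 of 8 (median log2 change 0.11), with scores of -0.02 to 0.12 in IsoL, against -0.08 to -0.0027 in Model. Of these, 3 were higher at an unadjusted p under 0.05, beside the same 6.44% of all tested genes. Endothelial markers were higher in 2 of 8 and lower in 6, with scores of -0.15 to 0.09 in IsoL, against -0.06 to 0.08 in Model. No gene of these 3 lists passed in edgeR, DESeq2 or limma voom, and the scores of each list overlapped between groups. The part of tissue composition in the lower Zdhhc2 and Zdhhc22 was not tested. With IsoL 3 and 4 alone against Model, the log2 changes were -0.27 for Zdhhc2 and -0.30 for Zdhhc22, past the threshold in neither (edgeR adjusted p = 0.174 and 0.132). Tissue markers still differed in that setting. Median log2 changes were -0.50 for hypothalamus (-0.65 with all libraries), 0.14 for astrocytes (0.13) and 0.25 for microglia (0.19). For choroid plexus they were 0.58 (1.66), and for cortex and hippocampus -0.19 (0.31).

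**Figure D5:**
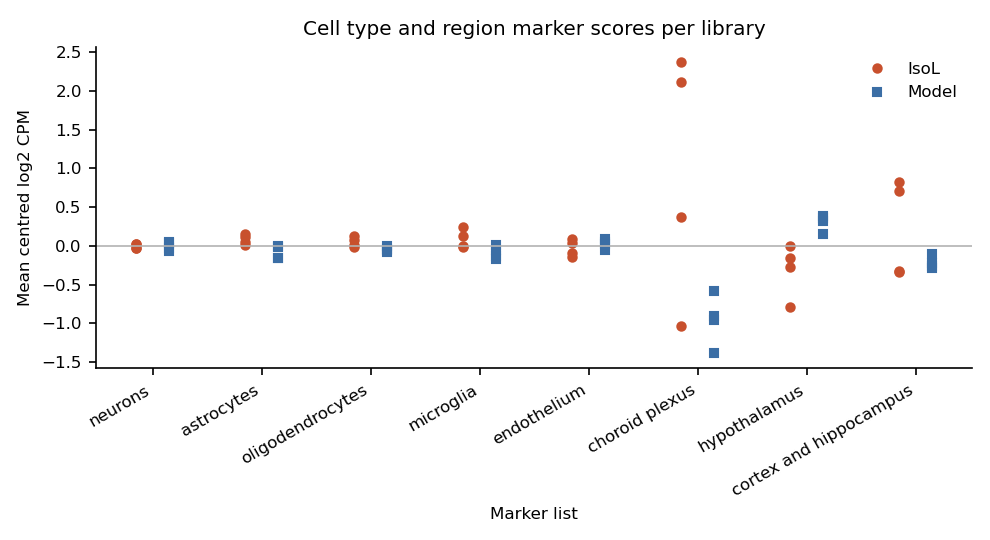
Score of each marker list in each library (mean over its genes of log2 CPM centred per gene), IsoL circles left of Model squares. Hypothalamus scores part the groups and astrocyte scores barely do, while choroid plexus and cortical scores are high in IsoL 1 and 2.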

How the data were processed

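RNA was sequenced in 4 IsoL and 4 Model libraries, grouped by sample title. The submitters' processing notes name fastp 0.22.0, HISAT2 2.1.0 and HTSeq 0.9.1. The sources used here name neither build nor annotation, so gene coordinates are printed as deposited, nor do they give a strand setting. The deposited gene coordinates do not match GRCm38, on which the motif positions are given. Per the file headers, the deposited table holds unnormalized read counts. It also gives deposited FPKM, which equal count over gene length and summed counts within a relative 1.7e-07. FPKM served for levels and shares, counts for every test.

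Genes kept by filterByExpr (14536) got TMM factors of 0.983 to 1.01. IsoL minus Model was tested by edgeR's robust quasi-likelihood method (version 4.0.16, R 4.3.3), Benjamini-Hochberg over all tested genes at 0.05. Standard errors were the absolute log2 change divided by the root of the F statistic, and 95% intervals took t quantiles. The common biological coefficient of variation was 9.06%. Member genes and lists were chosen with earlier results of these data known. Libraries of a group differed beyond counting noise (smallest chi-square per degree of freedom 2.52). Read floors cover counting error only.

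Per-library values are given for genes past the threshold, the 4 with the smallest p in each direction and 16 set by name. From the other pathway lists, genes past the threshold or else the 2 with the smallest p are named. Alternatives were DESeq2 size factors, library totals only, no filter, a replicate block, each library left out, IsoL 3 and 4 only (added after seeing the data, since tissue markers set IsoL 1 and 2 apart), DESeq2 1.42.0, limma 3.58.1 voom, a threshold of 0.1 and, for levels, counts per kilobase scaled by TMM. Deviations of same-numbered libraries correlated only weakly, which does not settle whether the numbers mark pairs or shared batches. The edgeR step was also run on simulated counts with known changes, whose means, dispersion and library sizes were taken from these data. Coding windows were cut by script from GENCODE transcripts. Protein sequences were not used here, and no identity between proteins is given. Plots used Python 3.11.15 and matplotlib 3.10.9.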

Additional observations from a re-analysis of the deposited data

Results flagged for a closer look

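In 3 of 62 sets of 4 libraries (31 genes in 2 groups) a single library lay far from the other 3 by Dixon's criterion, which chance meets in about 1 of 20 sets, or 3.1 here. Ppt1 in Model 2 had 199 CPM, the other Model libraries 151 to 155 CPM. Its log2 change of IsoL minus Model is 0.10 without that library, against -0.01 with it, and Model 2 was also the highest library for 7 of the other 8 thioesterase genes. Zdhhc3 in IsoL 4 had 86.8 CPM, the other IsoL libraries 91.6 to 92.2 CPM, and its log2 change without IsoL 4 is 0.05, against 0.03 with it. Abhd10 in IsoL 1 had 21.7 CPM, the other IsoL libraries 23.9 to 24 CPM, and its log2 change without IsoL 1 is 0.09, against 0.06 with it. The cause of these values was not tested.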

How the results depend on the processing

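The count of 2 palmitoylation genes past the threshold was also 2 with DESeq2 size factors, library totals only, no filter, DESeq2, limma voom and a threshold of 0.1. It was 0 with IsoL 3 and 4 only, a setting chosen after seeing the data, and 0 with the replicate block, and ran from 0 to 2 with each library left out in turn. The count of all genes past it was 40, and became 311 in DESeq2, 238 in limma voom, 74 without a filter, 17 with the replicate block, 138 at a threshold of 0.1 and 6 to 146 with 1 library left out. Fewer libraries or degrees of freedom enter the block and left-out fits, and otherwise the cause was not tested. In the block fit the log2 changes were -0.29 for Zdhhc2 and -0.31 for Zdhhc22 (edgeR adjusted p = 0.067 and 0.078). Deviations of same-numbered libraries correlated at 0.02 to 0.07, and 2 of the 8 libraries correlated best with their own number. With so few libraries this cannot decide whether same-numbered libraries shared a batch or a pairing. The median log2 change of the tested genes stayed between -0.05 and -0.0057. Zdhhc2 and Zdhhc22 were lower in IsoL in each of their 15 alternative fits. Of the 21 genes given by library, Zdhhc17, Zdhhc5, Zdhhc8, Ppt1, Lypla1, Lypla2, Zdhhc13 and Zdhhc23 changed sign in at least 1 fit, all with changes that had not passed. Depth limits the statements on Zdhhc11, Zdhhc12, Zdhhc19 and Zdhhc25. The rank of Zdhhc2 by level, the ninth, was the same by counts per kilobase scaled by TMM in place of FPKM. No planned setting was left out.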
